A study of Mus musculus with 72 samples.

Results

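The cells described here are the caudal dorsal raphe (cDR) Pet1 neurons that were labelled with P2ry1-cre, set against those of the same subdomain labelled with Slc6a4-cre. They were chosen by their titles in the manually sorted count table, which gave 10 P2ry1-cre cells and 6 Slc6a4-cre cells of 70 manually sorted cells in 8 groups. Each cell was a library of its own. The P2ry1-cre mice were P2ry1::cre+/-;Pet1::Flpe+/-;RC::FrePe+/- and the comparison mice Sert::cre+/-;Pet1::Flpe+/-;RC::FrePe+/-, so that Pet1-Flpe and the reporter were shared and only the Cre driver differed. P2ry1-cre is a knock-in at the P2ry1 gene, Slc6a4-cre (Sert) is a bacterial artificial chromosome transgene of the serotonin transporter gene, and Pet1-Flpe is a transgene driven by Fev (Pet1) sequence. RC-FrePe gives green fluorescence where both recombinases have acted and red fluorescence where Flpe alone has, and green cells were picked by hand from dissociated tissue. The P2ry1-cre cells came from mice of postnatal day 62 (1 cell), 63 (1 cell), 64 (4 cells), 66 (2 cells) and 74 (2 cells), whereas all 6 Slc6a4-cre cells were of postnatal day 63. The 10 cDR cells labelled with Npy2r-cre, from mice of postnatal day 77 or 87, served as a further caudal reference.

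Pet1 neurons make serotonin with tryptophan hydroxylase 2 (Tph2), load it into vesicles with the transporter Slc18a2, and take it back up with the transporter Slc6a4. The transcription factor Fev, called Pet1, switches on these genes during development and maintains them in the adult. The dorsal raphe of the midbrain is the largest serotonin cell group of the brain, and its Pet1 neurons differ in their receptors, peptides and targets by position. P2ry1 is a G protein-coupled receptor for adenosine diphosphate, and a Cre reporter stays on in a cell once it has been switched on, whether or not the driver gene is still expressed.

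Per-cell depth ran from 3999547 to 6416860 reads in the P2ry1-cre cells and from 3342867 to 4377495 in the Slc6a4-cre cells. The deeper P2ry1-cre libraries nevertheless held fewer genes, 6809 to 8930 with a read against 9078 to 10444, with no overlap between the groups, and the Npy2r-cre cDR cells held 7238 to 10017. Mitochondrial transcripts took 0.844% to 2.2% of reads in the P2ry1-cre cells and 2.39% to 4.84% in the Slc6a4-cre cells. Y-linked transcripts were present in 5 of the 10 P2ry1-cre cells and in none of the 6 Slc6a4-cre cells. Ages and Y-linked reads together gave 6 different classes of P2ry1-cre cells, and so at least 6 mice. No label names the mouse of a cell. Each group was therefore treated as 1 sample, values are given per cell, and no p-value was calculated.

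The P2ry1-cre libraries were split into 2 sets after their values were seen, by whether a cell had Atp5o reads. No label marks these sets, and the Atp5o values below are fixed by the split. In replicates 1 to 5, Rpl17, a ribosomal protein gene, read 1.48 to 2.84 CPM (the counts of a gene scaled to the usual common library total), while in replicates 6 to 10 it read 134 to 314 CPM and in the Slc6a4-cre cells 138 to 259 CPM. Atp5o, a subunit gene of the mitochondrial ATP synthase, went the other way, with 227 to 432 CPM in replicates 1 to 5 and a listed 0 in replicates 6 to 10. Between these sets of 5 cells, 116 genes (1.06% of those tested) were lower in replicates 1 to 5, with a mean difference of at least 4-fold and every cell below every cell of the other set. They held 37 of the 75 ribosomal protein genes tested. By the same measure 30 genes (0.274%) were higher. No other split of 5 against 5 cells stands beside these counts. Atp5o was also at 0 in 7 Npy2r-cre cells of the series and in no Slc6a4-cre cell. The study's methods name a HiSeq and a NextSeq sequencer without saying which cell was run on which, so sequencer and group cannot be told apart. The counts of genes, the list medians and the named genes were therefore also calculated for replicates 1 to 5 and for replicates 6 to 10, whereas the promoter, Npy2r-cre, all-cell, age and 10X comparisons were not.

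Genes were compared by size, with no significance test. The difference is the mean log2(CPM + 1) of the P2ry1-cre cells minus that of the Slc6a4-cre cells, over the 10953 genes with at least 1 CPM in 3 or more of the 16 cells. A gene was past the limit at a difference of 2 (4-fold on this scale) and separated when, in addition, every cell of one group lay above every cell of the other. Past the limit were 278 genes higher in the P2ry1-cre cells (2.54% of genes) and 1425 lower (13.0%). Separated were 20 genes higher (0.183%) and 60 lower (0.548%), while the cells of the groups did not overlap, at any size of difference, for 32 genes higher (0.292%) and 82 lower (0.749%). The median difference of all genes was -0.49, a general lean towards lower values in the P2ry1-cre cells whose cause was not tested. With differences centred on that median, 551 genes were past the limit higher and 805 lower, and 23 were separated higher and 53 lower. When the reads of each Slc6a4-cre cell were thinned until its gene number matched the median P2ry1-cre cell, all 20 higher genes stayed separated, and 38 of the 60 lower genes did.

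**Figure D1:**
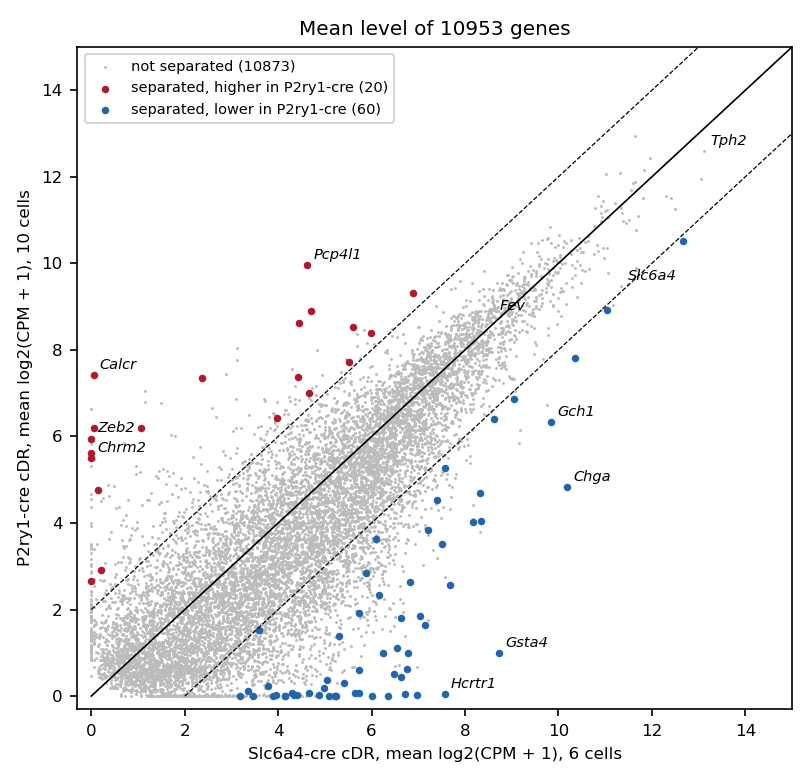
Mean log2(CPM + 1) of each of 10953 genes in the 6 Slc6a4-cre cDR cells (x axis) and the 10 P2ry1-cre cDR cells (y axis). The solid line marks equal means, the dashed lines a difference of 2; the 20 genes separated and higher in P2ry1-cre cells and the 60 separated and lower ones are coloured, and Tph2 and Fev lie within the dashed lines.

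P2ry1 reads were found in 8 of the 10 P2ry1-cre cells, with a lowest value of 0, a median of 51.8 and a highest value of 126 CPM. All 6 Slc6a4-cre cells were at 0, which put the summed level of P2ry1 in the P2ry1-cre cells at least 451-fold higher against a floor of 3 reads over the comparison group. Both cells without P2ry1 reads belonged to replicates 6 to 10. Slc6a4, whose gene sequence drives the other Cre, was detected in all 16 cells, at 64.8, 845 and 2538 CPM (lowest, median, highest) in the P2ry1-cre cells and 1945, 2516 and 3653 CPM in the Slc6a4-cre cells. The groups overlapped through P2ry1-cre replicate 4, and the difference of -1.88 did not reach the limit. It was -1.15 in replicates 1 to 5 and -2.62 in replicates 6 to 10. Npy2r, a neuropeptide Y receptor gene and the driver of the third caudal line, was at 0 in all 10 P2ry1-cre cells and had reads in 4 of 6 Slc6a4-cre cells (difference -3.96).

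The start regions of the driver gene and of leading genes are printed here because the driver gene defines the P2ry1-cre group and each of the other 6 was separated. They are RefSeq promoter windows of 300 bases on GRCm38.p6, 250 bases before to 50 after a start site, and the first listed window was taken where a gene had several. P2ry1 (chr3:61002535-61002834, plus strand) is the driver; Zeb2 (chr2:45117393-45117692, minus), Calcr (chr6:3763574-3763873, minus) and Chrm2 (chr6:36387834-36388133, plus) were separated and higher; Hcrtr1 (chr4:130139113-130139412, minus), Tmem176b (chr6:48841088-48841387, minus) and Rasgrp1 (chr2:117342828-117343127, minus) were separated and lower. Capitals mark CACCTG or its reverse complement CAGGTG, the E-box form bound by ZEB factors, and AGGTCA or TGACCT, the half-site of several nuclear receptors. A further motif, CGGAAG or CTTCCG, a core bound by ETS factors such as Pet1, is in none of these 7 windows.
P2ry1: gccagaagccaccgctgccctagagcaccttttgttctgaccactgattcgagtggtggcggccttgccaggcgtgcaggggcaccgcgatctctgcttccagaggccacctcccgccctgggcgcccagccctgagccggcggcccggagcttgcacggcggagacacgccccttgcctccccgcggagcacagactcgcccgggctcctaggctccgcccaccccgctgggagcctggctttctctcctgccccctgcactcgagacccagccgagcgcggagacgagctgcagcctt
Zeb2: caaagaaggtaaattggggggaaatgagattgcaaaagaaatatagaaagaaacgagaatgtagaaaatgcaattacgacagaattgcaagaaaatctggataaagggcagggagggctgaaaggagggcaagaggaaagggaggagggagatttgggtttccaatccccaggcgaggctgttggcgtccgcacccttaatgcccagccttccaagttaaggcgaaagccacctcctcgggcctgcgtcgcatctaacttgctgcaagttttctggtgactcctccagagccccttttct
Calcr: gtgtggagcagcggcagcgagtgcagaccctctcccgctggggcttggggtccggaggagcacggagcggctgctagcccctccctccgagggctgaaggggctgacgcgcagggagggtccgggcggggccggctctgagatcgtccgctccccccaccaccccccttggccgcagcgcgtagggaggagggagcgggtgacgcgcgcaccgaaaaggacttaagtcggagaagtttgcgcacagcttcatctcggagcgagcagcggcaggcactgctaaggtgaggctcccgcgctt
Chrm2: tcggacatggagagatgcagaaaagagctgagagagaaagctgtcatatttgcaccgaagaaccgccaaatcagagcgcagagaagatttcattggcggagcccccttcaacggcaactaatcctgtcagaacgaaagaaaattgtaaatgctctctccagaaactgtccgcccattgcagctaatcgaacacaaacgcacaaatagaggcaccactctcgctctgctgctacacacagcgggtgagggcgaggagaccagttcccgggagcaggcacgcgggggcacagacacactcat
Hcrtr1: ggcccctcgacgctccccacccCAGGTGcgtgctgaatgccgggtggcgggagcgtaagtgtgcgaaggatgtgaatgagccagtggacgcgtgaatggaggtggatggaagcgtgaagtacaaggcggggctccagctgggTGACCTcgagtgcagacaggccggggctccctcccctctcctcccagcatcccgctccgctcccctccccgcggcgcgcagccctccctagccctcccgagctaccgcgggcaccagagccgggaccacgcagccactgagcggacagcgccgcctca
Tmem176b: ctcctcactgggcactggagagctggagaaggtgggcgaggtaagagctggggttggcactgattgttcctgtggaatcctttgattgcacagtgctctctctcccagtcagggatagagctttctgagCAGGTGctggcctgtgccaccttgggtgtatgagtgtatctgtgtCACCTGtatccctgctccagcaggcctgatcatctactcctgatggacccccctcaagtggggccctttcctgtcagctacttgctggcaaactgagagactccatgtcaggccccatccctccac
Rasgrp1: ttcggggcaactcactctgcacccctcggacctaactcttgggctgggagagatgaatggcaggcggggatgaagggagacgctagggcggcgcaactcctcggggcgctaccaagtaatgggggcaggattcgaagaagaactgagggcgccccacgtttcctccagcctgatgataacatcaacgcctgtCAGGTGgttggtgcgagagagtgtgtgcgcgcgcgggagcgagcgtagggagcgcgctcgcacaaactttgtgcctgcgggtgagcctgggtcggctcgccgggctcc

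Of the 80 separated genes, 58 had a window in the RefSeq table. CACCTG on either strand was in 1 of 13 windows of the higher genes, that of Elmo1, in 12 of 45 windows of the lower genes (26.7%), and in 1478 of 8679 windows of all genes tested (17.0%). The AGGTCA half-site was in 0 of 13, 6 of 45 (13.3%) and 985 of 8679 (11.3%), respectively. The ETS core was in 1 of 13, 4 of 45 (8.89%) and 2878 of 8679 (33.2%). Among all genes past the limit, with windows for 218 higher and 1127 lower genes, CACCTG was in 18.8% of the higher and 18.4% of the lower windows, AGGTCA in 10.1% and 10.2%, and the ETS core in 25.2% and 26.3%. Over the first windows of all 27025 symbols in the table, the shares were 20.0%, 16.0% and 17.2%. A match describes these letters in this window and does not show a bound site.

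Calcr, the calcitonin receptor, had the largest difference among the genes higher in the P2ry1-cre cells (7.36), with a lowest value of 8.57, a median of 229 and a highest of 861 CPM in the P2ry1-cre cells. It had reads in 1 of 6 Slc6a4-cre cells, at 0.228 CPM. Calcr was not limited to the P2ry1-cre group, since it reached 444 CPM in the Npy2r-cre cDR cells, where most cells were at 0. Chrm2, the M2 muscarinic acetylcholine receptor, read 3.25, 60.5 and 189 CPM in the P2ry1-cre cells and 0 in all 6 Slc6a4-cre and all 10 Npy2r-cre cDR cells, at least 512-fold higher than the floor in the Slc6a4-cre cells. Gipr, the receptor for the gut hormone GIP, read 1.40, 76.9 and 131 CPM against 0 in all 6 cells, at least 504-fold higher.

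Zeb2, a zinc finger E-box binding repressor, read 9.04, 67.3 and 192 CPM in the P2ry1-cre cells and 0 in all 6 Slc6a4-cre cells, at least 551-fold higher, with a difference of 5.95. Maf, a leucine zipper transcription factor, read 4.83, 31.2 and 112 CPM against at most 0.876 CPM. Plcb4, a phospholipase C that receptors coupled to Gq activate, read 250.3, 499 and 806 CPM, and its highest Slc6a4-cre cell was at 62.5 CPM. In each of these 3 genes the groups left a gap between them, and the difference was past the limit in replicates 1 to 5 and in replicates 6 to 10.

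Pcp4l1, a small protein related to the calmodulin regulator Pcp4, was the most abundant of the leading genes, at 574, 962.5 and 1620 CPM against 0, 107 and 323 CPM. Sparcl1, a secreted matrix protein, read 198, 458 and 661 CPM against 1.46, 26.1 and 70.7 CPM. Other leading genes were Mctp1 (difference 5.00), a membrane protein with calcium-binding C2 domains, and Dnal4 (2.96), an axonemal dynein light chain. A further 8 of the 20 separated higher genes, Elmo1, Hsf4, mt-Nd3, Tctex1d2, Camk2d, Nbl1, Mrpl48 and Rpp25, had differences of 2.21 to 2.91. Of these, mt-Nd3 was listed at 0 in all 33 Slc6a4-cre cells of the series and had reads in 36 of the 37 others, a split by driver line across the series whose cause was not tested. Rpp25 stayed under the limit in replicates 6 to 10 (1.95), as did mt-Nd3 in replicates 1 to 5 (1.03). The other 18 were past the limit in both sets of 5 cells.

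**Figure D2:**
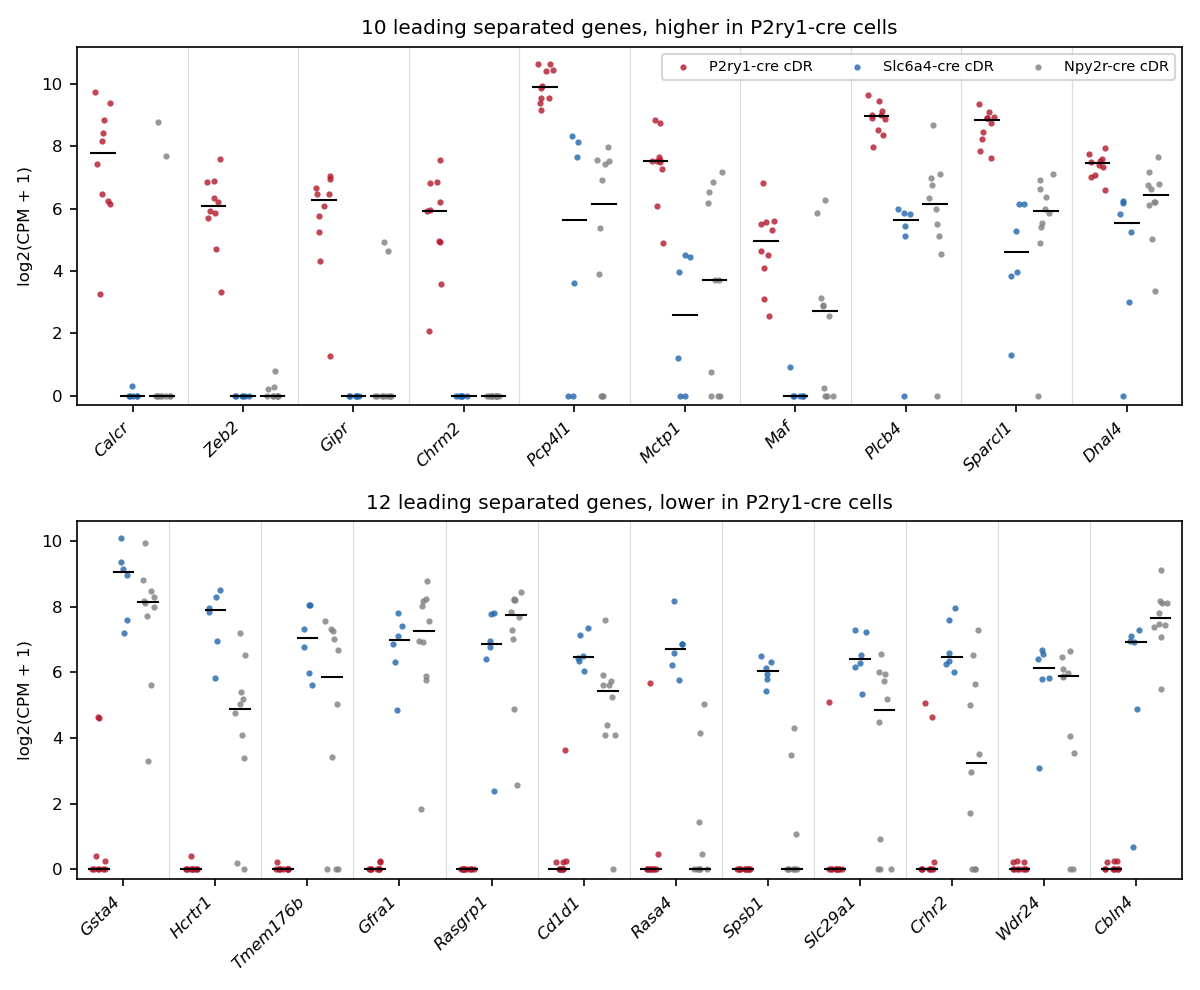
Each point is the log2(CPM + 1) of 1 cell for 10 leading separated genes that were higher and 12 that were lower, in the P2ry1-cre (10), Slc6a4-cre (6) and Npy2r-cre (10) cDR cells; black bars are medians. In the upper row every P2ry1-cre cell lies above every Slc6a4-cre cell and in the lower row every P2ry1-cre cell lies below, while the Npy2r-cre cells overlap the P2ry1-cre cells for some genes, such as Calcr.

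Among the genes lower in the P2ry1-cre cells, Hcrtr1, an orexin receptor, read 56.4, 238 and 366 CPM in the Slc6a4-cre cells, whereas 1 of 10 P2ry1-cre cells had reads, at 0.312 CPM (difference -7.53). Crhr2, a receptor for urocortins, read 64, 87.8 and 248 CPM against a highest P2ry1-cre cell of 32.8 CPM. Gfra1, the GDNF co-receptor, read 28.1, 125 and 223 CPM against at most 0.189 CPM. Gsta4, a glutathione transferase that clears lipid aldehydes, had the largest difference (-7.74), with 146, 531 and 1091 CPM in the Slc6a4-cre cells and at most 24 CPM in the P2ry1-cre cells.

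Rasgrp1, an activator of Ras, read 4.26, 116 and 222 CPM in the Slc6a4-cre cells and 0 in all 10 P2ry1-cre cells, at least 2379-fold lower in the sum. Spsb1, an adaptor of ubiquitin ligases, read 41.8, 65 and 89.4 CPM and was likewise at 0 in all 10, at least 1211-fold lower. Slc29a1, a nucleoside transporter, read 39.1, 83.8 and 154 CPM, and 1 P2ry1-cre cell had reads, at 33 CPM. Rasa4, a Ras GTPase-activating protein, was separated by the narrowest of these gaps, since its highest P2ry1-cre cell (50.5 CPM) was close to its lowest Slc6a4-cre cell (53.2 CPM). The other leading lower genes were Tmem176b (difference -6.94), Cd1d1 (-6.20), Wdr24 (-5.65) and Cbln4 (-5.57), the last a secreted synapse organizer.

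Further separated lower genes were Chga, Syn2, Ghrh and Rorb. Chga, the granule protein chromogranin A, read 664, 1258 and 1623 CPM in the Slc6a4-cre cells and 0, 75.8 and 316 CPM in the P2ry1-cre cells. Syn2, synapsin II of the synaptic vesicle surface, read 235, 327 and 427 CPM against 0, 38.7 and 105 CPM. Ghrh, the precursor of growth hormone-releasing hormone, read 14.8, 36.9 and 68.3 CPM against 0 in all 10 cells. Rorb, an orphan nuclear receptor, read 3.59, 47.6 and 91.6 CPM against at most 0.572 CPM.

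Of the 60 separated lower genes, 53 were past the limit in both sets of P2ry1-cre cells. The 7 that were not were Actg1, Celf6, Gm10358, Slc25a22, Tmsb10, mt-Nd5 and mt-Nd6, named after their values were seen. Actg1, a cytoplasmic actin, had a difference of -7.58 in replicates 1 to 5 and of -0.70 in replicates 6 to 10. Of the genes past the limit, 150 of 278 higher and 812 of 1425 lower genes were past it in both sets.

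**Figure D3:**
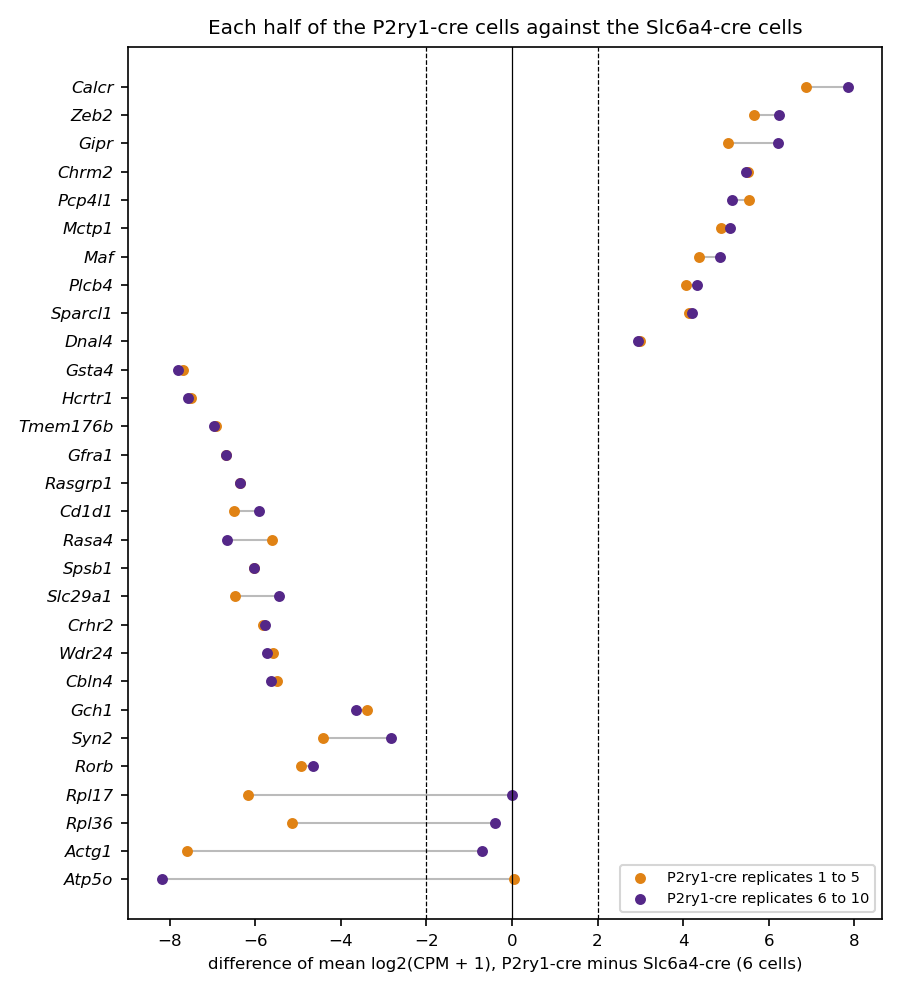
Difference of mean log2(CPM + 1) from the 6 Slc6a4-cre cDR cells for P2ry1-cre replicates 1 to 5 and for replicates 6 to 10, for leading separated genes and chosen further genes; dashed lines mark the limit of 2. The 22 leading genes shown are past the limit in both sets, whereas Rpl17, Rpl36 and Actg1 are past it in replicates 1 to 5 and Atp5o in replicates 6 to 10.

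The serotonin genes were read next. Of the 23 members tested in the 3 serotonin lists (synthesis, transport and breakdown, identity factors), 1 was past the limit higher and 2 lower, shares near the 2.54% and 13.0% of all genes, and the median difference was -0.48, beside -0.49 for all genes. Tph2 read 2720, 6676 and 12510 CPM in the P2ry1-cre cells and 7343, 8336 and 11425 CPM in the Slc6a4-cre cells (difference -0.53, with an SD over cells of 0.65 and 0.25 on the log2 scale). Ddc, which makes serotonin from 5-hydroxytryptophan, read 1643, 2856 and 4011 CPM against 1379, 2119 and 2603 CPM (0.46). Fev read 254, 429 and 726 CPM against 242, 436 and 546 CPM (0.18), and the vesicle transporter Slc18a2 671, 1188 and 1797 CPM against 680, 1026 and 2765 CPM (-0.05). All 4 were detected in all 16 cells, with overlapping ranges, so both groups carried the defining markers of serotonergic neurons.

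Gch1, the first enzyme in the synthesis of the tetrahydrobiopterin cofactor that Tph2 needs, stood out in this list. It read 2.65, 128 and 307 CPM in the P2ry1-cre cells and 495, 1005 and 1255 CPM in the Slc6a4-cre cells, with no overlap (difference -3.51, and -3.38 and -3.65 in the 2 sets). The next enzymes of that pathway, Pts and Spr, had differences of -1.63 and -1.77, while the recycling enzymes Qdpr and Pcbd1 had -0.13 and -0.48 and the Gch1 regulator Gchfr 0.26. Slc29a4, a low-affinity amine transporter, was past the limit lower (-2.33) with overlapping ranges. The amine oxidases Maoa and Maob had differences of 1.43 and 0.80. Lmx1b, a homeodomain factor upstream of Fev, differed between the sets of P2ry1-cre cells, at 0 to 7.38 CPM in replicates 1 to 5 and 17.3 to 42.6 CPM in replicates 6 to 10.

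**Figure D4:**
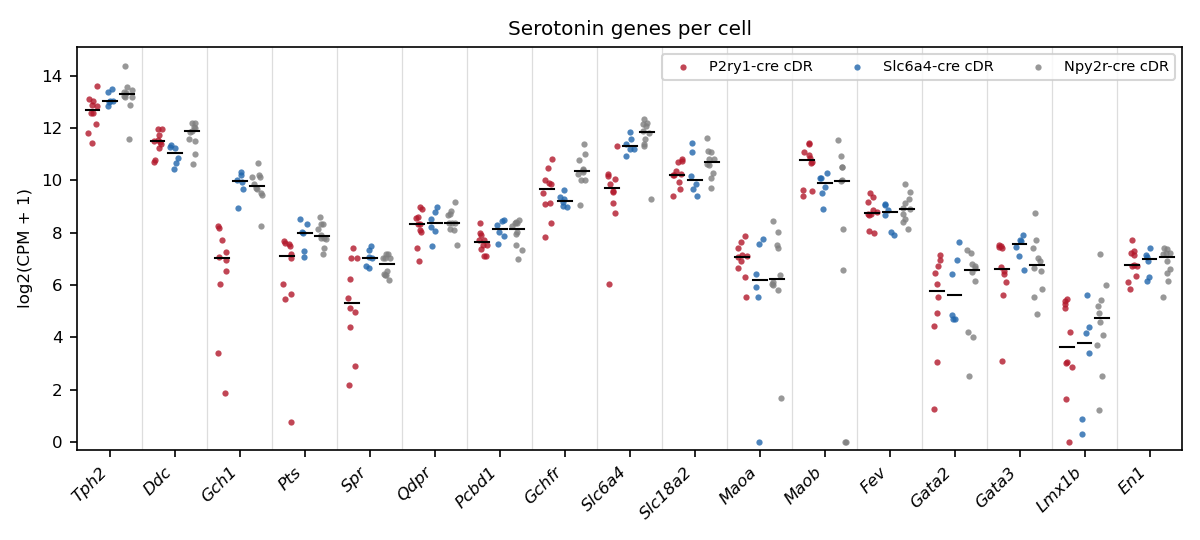
Log2(CPM + 1) of 17 serotonin genes per cell in the P2ry1-cre (10), Slc6a4-cre (6) and Npy2r-cre (10) cDR cells, with black bars at the medians. Gch1 shows no overlap between the P2ry1-cre cells and either of the other groups, whereas Tph2, Ddc, Slc18a2 and Fev overlap.

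The labelled cells were checked against markers of the Pet1 neurons that express the receptor tyrosine kinase Met, the type that the study relates to P2ry1. Met read 0, 86.8 and 161 CPM in the P2ry1-cre cells, with reads in all but replicate 5, and was at 0 in all 6 Slc6a4-cre and all 10 Npy2r-cre cDR cells. Tacr3, the neurokinin B receptor, had reads in 9 of 10 P2ry1-cre cells (highest 78.4 CPM) and in none of the 16 other caudal cells. Zeb2 and P2ry1 are given above, and Oprm1, the mu-opioid receptor, had reads in 4 of 10 P2ry1-cre and 1 of 6 Slc6a4-cre cells (0.98).

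Of the 7 receptors that the study named for this type, 6 were past the limit higher and none lower, with a median difference of 3.59, beside 2.54% of all genes higher, 13.0% lower and an all-gene median of -0.49. P2ry1 is the driver by which the cells were chosen, and without it 5 of 6 were past the limit higher, with a median of 3.50. Beside Gipr, P2ry1 and Tacr3, these were Rxfp1, a relaxin receptor (4.24), S1pr3, a sphingosine 1-phosphate receptor (3.59), and Gabra2, a GABA-A receptor subunit (3.10). Of 8 tested receptors that it named as low in this type, 7 were past the limit lower, with a median of -3.98. Hcrtr2, the other orexin receptor, the histamine receptor Hrh1 and the serotonin receptor Htr1b were at 0 in all 10 P2ry1-cre cells and had reads in 5 of 6 Slc6a4-cre cells each. Nr3c1, the glucocorticoid receptor, read 0, 3.04 and 117 CPM against 13.9, 91.7 and 135 CPM. The study named these receptors from its droplet (10X) cells, apart from Gipr, which it credited to the P2ry1-cre cells described here and which is therefore not independent evidence of its direction.

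Further receptors and channels were split in both directions. Of 20 neuropeptide and hormone receptors tested, 4 were past the limit higher and 8 lower. Grm5, a metabotropic glutamate receptor, read 34.2, 186 and 474 CPM in the P2ry1-cre cells and had reads in 3 of 6 Slc6a4-cre cells, 1 of them at 59.1 CPM (5.88). Among 49 potassium channel genes, 5 were past the limit higher and 10 lower, led by Kcnk9, a background potassium channel (-5.45). Among 40 calcium, sodium, HCN and TRP channel genes, 2 were higher and 11 lower, led on the lower side by Scn9a, the sodium channel that is also used by pain fibres (-5.85). Among 19 glutamate receptor genes, 1 was higher and 3 lower, and among 15 GABA and glycine receptor genes 2 and 2. The medians of the channel lists ran from -0.32 to -1.26, beside -0.49 for all genes, of which 2.54% were past the limit higher and 13.0% lower.

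The counts of the wiring, release and calcium-binding lists stand beside 2.54% of all genes past the limit higher and 13.0% lower, and several lie near these shares. Of 44 axon guidance genes, 6 were past the limit higher and 11 lower. Met led the higher side, followed by Sema6a, a transmembrane semaphorin (5.16), and Plxnc1, a semaphorin receptor (4.08), and Plxna3, a plexin, was lowest (-3.91). Of 31 cadherins and protocadherins, 2 were higher and 11 lower, with Pcdh17 (-4.95) and Pcdh19 (-4.78) lowest. Of 56 synaptic adhesion genes 1 was higher and 10 lower, among them Nrxn3, a neurexin (-3.50). Of 61 vesicle release genes, 1, the tomosyn gene Stxbp5 (3.34), was higher and 11 were lower, including Syt17 (-5.23), a synaptotagmin at 0 in all 10 P2ry1-cre cells. Among 21 calcium-binding protein genes, S100b (4.66) and Sparcl1 were past the limit higher, and 5 were lower, with Hpcal1 separated (-3.99).

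Slc17a8, the glutamate transporter VGLUT3, which marks raphe neurons that can release glutamate, read 21.0, 128 and 353 CPM in the P2ry1-cre cells and 22.2, 112 and 239 CPM in the Slc6a4-cre cells, with overlapping ranges (0.29). Nr2f2, a nuclear receptor, read 31.5 to 121 CPM in all 10 P2ry1-cre cells. Among the Slc6a4-cre cells, 4 were at 91.1 to 109 CPM and 2 under 1 CPM, so that this group was not uniform.

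Transcripts tied to library quality were read against the same shares of all genes, 2.54% higher and 13.0% lower. Ribosomal protein genes had a median difference of -1.12 over 75 genes, with 15 past the limit lower. That median was -2.19 in replicates 1 to 5, with 43 past the limit lower, where the median of all genes was -0.62 and 19.7% were past the limit lower. In replicates 6 to 10 it was -0.01, with 0 past the limit lower, where the median of all genes was -0.31 and 12.7% were past it. Nuclear genes of oxidative phosphorylation had a median of 0.16. Of 9 immediate early genes tested, 1 was higher (Btg2) and 4 lower, among them Fos, with reads in 3 of 10 P2ry1-cre and 6 of 6 Slc6a4-cre cells. Of the glial markers, Gfap of astrocytes had reads in 4 of 6 and Mbp of oligodendrocytes in 5 of 6 Slc6a4-cre cells, up to 199.5 and 261 CPM, and neither had reads in any of the 10 P2ry1-cre cells. Of the lists of other cells, the summed level of vessel and blood markers was at most 12.3 CPM in the P2ry1-cre and 19 CPM in the Slc6a4-cre cells, and that of other neuron types 0 and 43.2 CPM. The part of gene number, mitochondrial share, Y-linked reads and glial markers in the differences above was not tested.

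The comparison was set beside the third caudal group. Against the 10 Npy2r-cre cDR cells, over the same genes, 191 were past the limit higher in the P2ry1-cre cells (1.74%) and 833 lower (7.61%), and 7 genes were separated higher in the P2ry1-cre cells (0.0639%) and 21 lower (0.192%). Both comparisons share the P2ry1-cre cells. Every P2ry1-cre cell lay above every cell of both other caudal groups for 5 genes (0.0456%), which were Chrm2, Nap1l5, Pcp4l1, Sparcl1 and Zeb2. It lay below every one of them for 10 genes (0.0913%), which were Cbln4, Col25a1, Elavl2, Gch1, Gfra1, Rap2a, Rasgrp1, Syn2, Vstm2l and Zbtb20. For Cbln4 and Col25a1 this order rested on values under 1 CPM. Their highest P2ry1-cre cells were at 0.19 and 0.164 CPM, and the lowest other caudal cells at 0.598 and 0.584 CPM. Vstm2l was nearly level at that edge, at 12.3 against 13.1 CPM. Hcrtr1 was lower in the Npy2r-cre cells (0, 28.8 and 144 CPM) than in the Slc6a4-cre cells, and Rorb (highest 3.95 CPM), Rasa4 and Spsb1 had medians of at most 0.401 CPM there. Gfra1 and Rasgrp1, in contrast, were at medians of 155 and 216 CPM.

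Beyond the caudal groups, the manually sorted cells came from Slc6a4-cre mice of postnatal day 63 or 90 (dorsolateral, dorsomedial and ventromedial subdomains), Npy2r-cre mice of postnatal day 77 or 87 (rostral) and Crh-cre mice of postnatal day 83 or 119 (rostral), all with Pet1-Flpe and RC-FrePe. Over all 60 other manually sorted cells, from 7 groups, every P2ry1-cre cell lay above for 3 genes (0.0274%) and below for 2 (0.0183%). The 3 were Zeb2, whose highest value elsewhere was 0.73 CPM; Pcp4l1, at 323 CPM elsewhere and 574 CPM in the lowest P2ry1-cre cell; and Nap1l5, an imprinted gene of the nucleosome assembly family, at 6355, 8028 and 9312 CPM against at most 5915 CPM. The 2 were Gch1, whose highest P2ry1-cre cell (307.1 CPM) lay just under the lowest other cell (307.5 CPM), and Syn2 (105 against 115 CPM).

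Single ages were compared with the Slc6a4-cre cells as a description, since separated genes differ in the same direction in every cell by their definition. The median difference of all genes ran from -0.78 at postnatal day 62 to 0 at postnatal day 63, and 798 to 1117 of the 1425 lower genes were past the limit at each age. Of the 20 separated higher genes, 17 to 19 were past the limit at each age, and of the 60 lower genes 49 to 59. The 4 cells of postnatal day 64, which were the closest in age to the Slc6a4-cre cells with more than 1 cell, gave 19 and 59. The 5 P2ry1-cre cells without Y-linked reads gave 20 and 54, and the 5 with them 19 and 58. The median Spearman correlation over 10953 genes was 0.597 within the P2ry1-cre cells (45 pairs of cells) and 0.667 within the Slc6a4-cre cells (15 pairs). Between P2ry1-cre and Slc6a4-cre cells it was 0.588 (60 pairs). With the Npy2r-cre cDR cells it was 0.608 for the P2ry1-cre cells (100 pairs) and 0.658 for the Slc6a4-cre cells (60 pairs). The P2ry1-cre cells were thus no more alike among themselves than with the Npy2r-cre cells. Pairs shared depth and set of libraries to different degrees.

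The same genes were read in the droplet (10X) table of 2350 Pet1 neurons from the full dorsal raphe. The first sample was Pet1::Flpe+/-; hM3Dq+/+ (mean age postnatal day 65.5), and the genotype of the other was En1::cre+/-;Pet1::Flpe+/-;RC::FrePe+/- (mean postnatal day 59). The table does not tie cells to either sample, so they count as 1 sample. The authors removed cells with unusually high UMI or gene numbers before deposit, and no doublet caller was run here, so doublets may remain. The 93 cells with at least 3 Met molecules (UMIs) were set against the other 2257, at a median of 46273 and 60399 UMIs per cell. Of 19 separated higher genes in that table, all 19 were at a higher level in the Met cells, beside 56.7% of all genes tested, and of 59 separated lower genes 52 were at a lower level, beside 43.3%. With at least 1 Met UMI (139 cells) these counts were 19 and 53, and with at least 10 (31 cells) 18 and 52. Over all genes past the limit, the shares were lower: 230 of 269 higher genes (85.5%) and 924 of 1391 lower genes (66.4%) had the same direction with at least 3 Met UMIs. Stxbp5 (32.2 against 38.6 CPM) and Btg2 (13.7 against 28.1 CPM), past the limit higher in the P2ry1-cre cells, were at a lower level in the Met cells. The separated higher gene mt-Nd3 was at 1666 CPM in the Met cells and 1560 CPM in the others. Zeb2 was at 232 CPM of summed UMIs (95% exact Poisson interval 218 to 247) against 1.6 CPM (1.39 to 1.83), and P2ry1 at 56 CPM (49.2 to 63.5) against 2.62 CPM (2.35 to 2.91). Calcr was at 182 CPM (169.9 to 195) against 23.8 CPM (23 to 24.7). Hcrtr1 was at 3.43 CPM (1.92 to 5.65) against 69.2 CPM (67.8 to 70.7), and Gch1 at 101 CPM (91.4 to 110.4) against 498.4 CPM (494.5 to 502.2). Slc6a4 was at 691 against 2278 CPM and Fev at 280.2 against 337 CPM. The 7 lower genes that were not at a lower level were mt-Nd6, Slc25a22, Agpat1, Irf2bpl, Atg2b, Pla2g15 and Relt. The intervals cover counting error only, and the comparison there is with Pet1 neurons of the whole dorsal raphe rather than of the cDR.

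**Figure D5:**
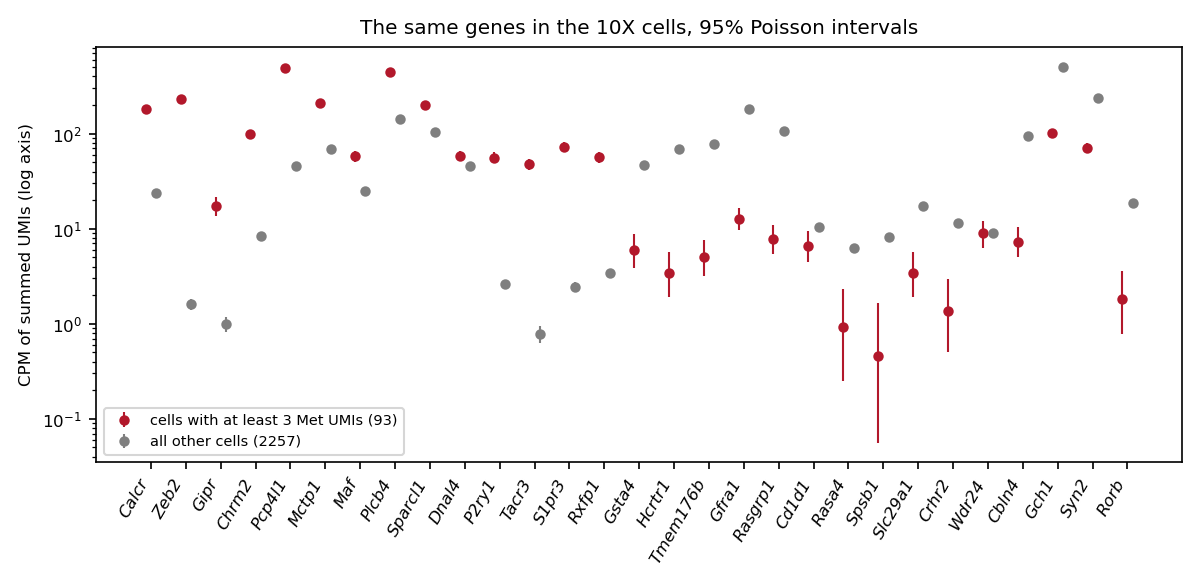
Level of leading genes and of chosen further genes in the 10X cells with at least 3 Met UMIs (93 cells, red) and in the other 2257 cells (grey), as CPM of summed UMIs on a log axis with 95% exact Poisson intervals that cover counting error only. The higher genes on the left are above the other cells throughout, and the lower genes on the right are below them, with Wdr24 nearly level.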

How the data were processed

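Single cells were picked by hand, made into libraries with a template-switching kit (SMART-Seq v4) and Nextera XT, and sequenced without molecular identifiers. The authors aligned reads with STAR 2.5.4 to mm10 and deposited whole-number counts per gene for each manually sorted cell, unfiltered by cell; the deposited 10X counts are UMIs from Cell Ranger 3.0.2. Counts were divided by the cell's total (CPM), log2(CPM + 1) was averaged over cells, and differences were read without a test, since no label ties cells to mice. Genes needed 1 CPM in 3 of the 16 cells. Summed counts carry exact Poisson intervals at 95%, and a group at 0 was given a floor of 3 reads, both covering counting error only. The 12 separated genes with the largest difference in each direction, up to 4 members of each list and all driver, serotonin and study-named receptor genes were named, apart from a few genes that are not reported here. Members and lists were chosen with earlier results of these data known. Promoters and gene positions came from RefSeq (GRCm38.p6). On simulated counts, the difference had the right direction for 102 of 102 genes changed by 2 and 98 of 98 changed by 3 on the log2 scale. The median absolute error was 0.43 and 0.38, respectively. Only genes of higher mean level were changed there, with the same dispersion for all genes and no gap in gene number. The simulation therefore does not measure errors in the real cells. Python 3.11.15 and R 4.3.3 with edgeR 4.0.16 and DESeq2 1.42.0 (library scaling alone) were used. Alternatives covered the pseudocount, scaling, filter, limit, depth, ages and single cells.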

Additional observations from a re-analysis of the deposited data

Results flagged for a closer look

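In each group of cells, the highest and the lowest cell of each printed gene and of the library measures were compared with their nearest neighbour by Dixon's criterion at the 95% level. This marked 37 results in 193 groups of values; chance alone marks about 1 in 20 groups, and CPM values of single cells are skewed.

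Among the P2ry1-cre cells, the shallowest library (3999547 reads, replicate 10) lay apart from the other 9. The lowest P2ry1-cre cell lay apart for Camk2d (264 CPM), Celf6 (0.522 CPM), Gipr (1.4 CPM), Met (0 CPM), Nr2f2 (31.5 CPM), Pts (0.686 CPM), Sema6a (0.312 CPM), Slc25a22 (0 CPM) and Slc6a4 (64.8 CPM). The highest P2ry1-cre cell lay apart for Cd1d1 (11.4 CPM), Col25a1 (0.164 CPM), Hcrtr1 (0.312 CPM), Pcdh17 (4.1 CPM), Pcdh19 (28 CPM), Pla2g15 (0.381 CPM), Rasa4 (50.5 CPM), Relt (12.1 CPM), Scn9a (39.7 CPM), Slc29a1 (33 CPM) and Tmem176b (0.174 CPM). Among the Slc6a4-cre cells, the lowest cell lay apart for Cbln4 (0.598 CPM), Hcrtr2 (0 CPM), Maoa (0 CPM), Pcdh19 (0 CPM), Plcb4 (0 CPM), Rasgrp1 (4.26 CPM) and Wdr24 (7.45 CPM). The highest Slc6a4-cre cell lay apart for Agpat1 (136 CPM), Calcr (0.228 CPM), Grm5 (59.1 CPM), Maf (0.876 CPM), Oprm1 (16.8 CPM), Rap2a (163 CPM), Rxfp1 (2.93 CPM), S1pr3 (76.3 CPM) and Sema6a (9.59 CPM). For Met the cell was replicate 5, which had 8.42 CPM of P2ry1, and for Slc6a4 it was replicate 10, which had 15.8 CPM of P2ry1.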

How the results depend on the processing

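Limits: each group counts as 1 sample, so nothing here measures the spread between mice, and a set of fewer cells separates more genes by construction. The separated genes, 20 higher and 60 lower, changed to 11 higher at a limit of 3, to 71 and 235 with the P2ry1-cre cells of postnatal day 64 alone, to 60 and 297 with replicates 1 to 5 (Atp5o reads) alone, to 53 and 123 with replicates 6 to 10 (Atp5o at 0) alone, and to 43 and 156 with the cells without Y-linked reads alone. The genes past the limit, 278 higher and 1425 lower, changed to 616 and 3012 at a pseudocount of 0.1 CPM, 52 and 136 at 10 CPM, 435 and 2229 with medians over cells, 1054 and 3764 at a limit of 1, and 85 and 432 at a limit of 3. Higher genes were 479 with postnatal day 64 alone, 486 with replicates 6 to 10, 443 without Y-linked reads and 442 with the Slc6a4-cre cells thinned to the P2ry1-cre gene number. Lower genes were 2153 with replicates 1 to 5, and centring on the median of all genes gave 551 and 805. Against the 16 other caudal cells rather than all 60, the genes above and below every other cell went from 3 to 5 and from 2 to 10. Leaving out each cell in turn gave 19 to 26 separated higher and 65 to 92 separated lower genes (92 without Slc6a4-cre replicate 5), 264 to 370 and 1361 to 1577 genes past the limit, and a serotonin median of -0.59 to -0.40. Of the genes printed, Atp5o (-4.06) turned to 0.039 with replicates 1 to 5 and Rpl9 (-2.72) to 0.51 with replicates 6 to 10. The size of single differences also depended on the pseudocount. Of 149 named genes, 39 shifted by more than the larger SD over cells at 0.1 CPM and 35 at 10 CPM. With TMM or DESeq2 scaling, 20 higher and 59 lower genes stayed separated. The splits by Atp5o and Y-linked reads, the centring and the thinning to gene number were chosen after seeing the data, and the cause of these shifts was not tested. No paired analysis was possible because the results come from no test and the replicate numbers only name cells.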
